A study of Paralichthys olivaceus with 2 samples.

Results

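Cartilage miR-140 with its other strand miR-140* and the smooth muscle pair miR-143 and miR-145 were measured on microarrays of Japanese flounder (Paralichthys olivaceus) larvae, a flatfish whose body turns asymmetric as it settles on the sea floor. They were chosen by name and make 4 of the 252 conserved miRNA names on the arrays. The 4 probes, dre-miR-140, dre-miR-140*, dre-miR-143 and dre-miR-145 by their full zebrafish names, were 4 of 263 for known zebrafish or pufferfish miRNAs and of 987 in all, and each had 3 spots. The 2 groups were bred whole larvae at 29 days post hatching (dph), the middle of metamorphosis, and whole larvae at 17 dph, before it. Each group was 1 tube of 5 larvae and 1 array, so that larvae were pooled, differences have no replicate behind them and the stages could not be tested against each other. In whole larvae, fewer cells of a type and less miRNA per cell cannot be told apart, and the arrays held no marker genes against which cartilage or smooth muscle could be checked.

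MicroRNAs are short RNAs that guide repression of messenger RNAs, mainly through the seed at bases 2 to 8. miR-140 is known from developing cartilage, where its precursor lies within the gene of the ubiquitin ligase WWP2, and in zebrafish it limits Pdgfra in the migrating cells of the palate. Either strand of its hairpin can be loaded, and the star marks the strand that older naming took for the passenger. miR-143 and miR-145 come from neighbouring hairpins that are usually transcribed together, and are known in mice for the contractile state of vascular smooth muscle and in zebrafish for maturation of the gut's smooth muscle.

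The target sequences show how the probes relate to each other, so they are printed with the seed in capitals. They are the arrays' own sequences, those of miR-140, miR-140*, miR-143 and miR-145 under zebrafish names. The match of the printed sequences to the flounder's RNAs was not tested.
miR-140: cAGUGGUUuuacccuaugguag
miR-140*: uACCACAGgguagaaccacggac
PN124: aCCACAGGguagaaccacggac
miR-143: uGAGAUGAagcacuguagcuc
miR-145: gUCCAGUUuucccaggaauccc
PN76: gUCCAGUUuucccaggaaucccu
PN124 and PN76 are 2 of the arrays' coded candidate probes, whose origin the labels do not state, and serve as second measurements. PN124 holds the 22 bases of miR-140* after its first, so its bases 2 to 8 are CCACAGG where those of miR-140* are ACCACAG. PN76 holds all 22 bases of miR-145 with 1 more at the 3′ end and has the same seed. No candidate was nested with miR-140 or miR-143, and among the conserved probes no other name shared a seed with any of the 4. When folded against each other, the miR-140 and miR-140* targets formed 18 base pairs, 1 of them G with U. This pairing includes the first base of miR-140*, which PN124 lacks.

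The first question was which of these miRNAs were detectable at each stage. The detection limit, which 50% or more of a probe's spots had to pass, was the mean + 3 SD of 715 empty spots, a density of 45.6 at 29 dph and 68.7 at 17 dph. miR-140* and miR-143 were detected at both stages, miR-145 by its conserved probe at 29 dph only, and miR-140 at neither. Of the 252 conserved miRNA names 126 were detected at 29 dph and 66 at 17 dph.

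miR-140 had spot densities of 37.0, 40.4 and 39.1 at 29 dph, against 41.1, 42.5 and 44.4 at 17 dph. These values lie among those of spots without a probe, of which 347 were brighter than its mean at 29 dph and 593 were brighter at 17 dph. No fold change is given for it, since both stages were below the limit. miR-140*, the other strand of the same hairpin, had spot densities of 198, 219.7 and 223 at 29 dph, against 113, 98.8 and 126 at 17 dph. All of its spots were above the limits, and the spots of the 2 stages did not overlap. The 2 strands therefore differed in detection on both arrays. Because binding differs between probes, the densities do not give the ratio of the strands.

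PN124, the candidate nested in miR-140*, gave closely similar densities of 254, 210.3 and 244 at 29 dph, against 121, 119 and 89.0 at 17 dph. Its mean was 1.11 times that of the miR-140* probe at 29 dph and 0.975 times at 17 dph. The signal of miR-140* was thus present on a second set of spots, with a probe that differs by 1 base in length.

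miR-143 had spot densities of 236, 243 and 252 at 29 dph, against 109, 108 and 106 at 17 dph. Its mean was 243 ± 7.88 at 29 dph and 108 ± 1.82 at 17 dph (SD over 3 spots), the lowest coefficients of variation of the 6 probes, at 3.24% at 29 dph and 1.70% at 17 dph. Each SD is over the 3 spots on 1 array and holds no variation between larvae or arrays.

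miR-145 had spot densities of 119, 137 and 124 at 29 dph, against 61.5, 73.7 and 67.5 at 17 dph. At 17 dph 1 of its 3 spots was above the limit. Among the empty spots of that array 2 were brighter than 100, and they enter the mean and SD that set its limit. With limits of the mean + 2 SD (61.2) or the median + 3 MAD (54.9) of the empty spots miR-145 was detected at 17 dph as well. By these 2 rules 135 and 124 conserved names were detected at 29 dph, against 71 and 78 at 17 dph. PN76, the candidate that holds the miR-145 target whole, had spot densities of 523, 483 and 525.5 at 29 dph, against 119, 131 and 121 at 17 dph, above the limits in all 6 spots. By PN76, then, the miR-145 target was detected at both stages.

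**Figure D1:**
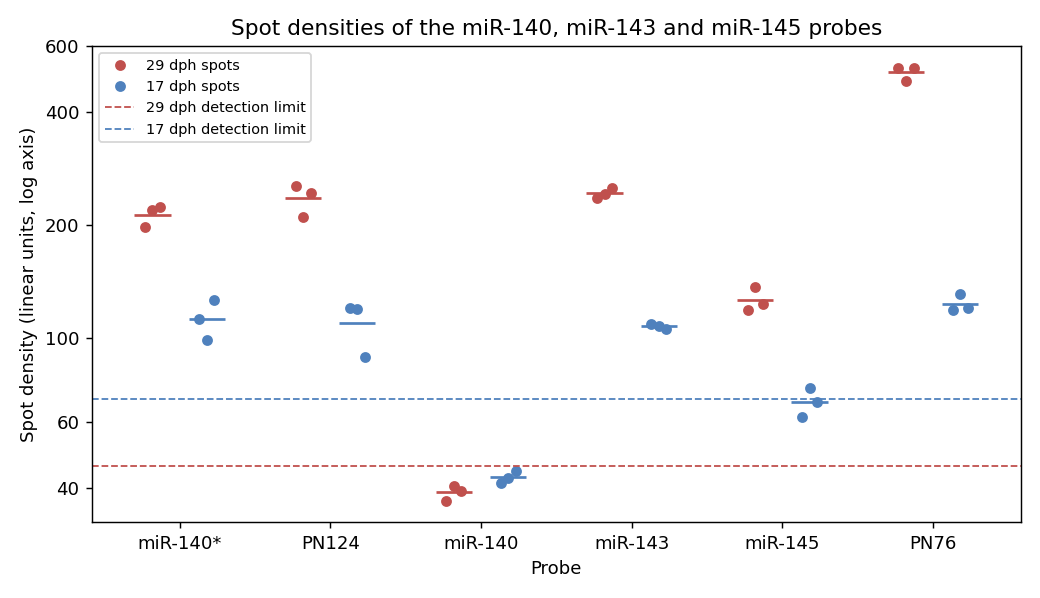
Spot density (linear units on a log axis) of each probe, with 3 spots at 29 dph (left, red) and 3 at 17 dph (right, blue), short lines at the means and dashed lines at the detection limits of 45.6 and 68.7. All probes other than miR-140 are brighter at 29 dph, miR-140 lies below both limits, and PN76 is the brightest at 29 dph.

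PN76 was 4.03 times as bright as the miR-145 probe at 29 dph and 1.83 times at 17 dph. After subtraction of the median of the empty spots (38.8 at 29 dph and 45.6 at 17 dph) these ratios were 5.37 and 3.54. The 2 targets differ by a single base at the 3′ end, and the part of that base in the gap was not tested. Across 69 pairs of a detected conserved probe and a candidate nested with it, the candidate's density was 1.15 times the conserved probe's at 29 dph by the median. PN76 had a higher ratio than 60 of the 69 pairs.

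The main comparison asked how the members differed between 29 dph and 17 dph. The direction rests on how the 2 arrays are put on a common scale, because the 29 dph array was brighter over all probe spots, with a median of 139.4 against 55.4 at 17 dph. Conserved probe spots alone had medians of 44.9 at 29 dph and 46.4 at 17 dph. These lie below the detection limits, beside empty-spot medians of 38.8 at 29 dph and 45.6 at 17 dph, and so do not compare detected signal. The spike-in calibration probes do not settle the scale, since of 7 that were brighter than 1000 on both arrays 3 were brighter at 29 dph and 4 dimmer, with ratios from 0.593 to 2.90. The split followed the probes' names. The 3 brighter ones were PUC2PM-20B, a2-PUC2PM-20B and a3-PUC2PM-20B (from 1.43 to 2.90). The 4 dimmer ones were Ctr07-3P, Ctr09-3P, PUC2PM and a-PUC2PM (from 0.593 to 0.793). The reason was not tested.

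In the densities as deposited, all detected members and both candidates were brighter at 29 dph. The ratio of 29 dph over 17 dph was 1.90 for miR-140*, 2.26 for miR-143, 4.14 for PN76 and 2.15 for PN124. None is given for the miR-145 probe, whose density at 17 dph was below the limit. In the authors' deposited table, a processed intensity for each probe (medians over all probes of 41.0 at 29 dph, against 37.1 at 17 dph), the same probes were all lower at 29 dph. miR-140* stood there at 60.2 at 29 dph and 207.6 at 17 dph, and PN124 at 67.2 at 29 dph and 204.0 at 17 dph. miR-143 stood at 67.8 at 29 dph and 199.5 at 17 dph. miR-145 stood at 34.8 at 29 dph and 66.8 at 17 dph, and PN76 at 156.5 at 29 dph and 248.7 at 17 dph. The same RNA is thus brighter at 29 dph on the scanner's scale and lower at 29 dph on the authors' scale, whose steps stay unknown.

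Quantile normalization over all probe spots, after normexp background correction and log2, gave measured differences below 0 for all 5. miR-140* had a normalized log2 signal of 7.08 ± 0.063 at 29 dph and 8.13 ± 0.19 at 17 dph, a log2 difference of -1.06. It was the only member called lower at 29 dph, where a call needs a log2 difference of at least 1 in size, spot ranges that do not overlap and detection on at least 1 array. The call was lost when the third spot of every probe was left out, at -0.98, and with either scaling to conserved probes alone, at -0.68 and -0.71. It was lost with the direction turned with no scaling, at 0.85, and with the GC trend removed, at 0.020. PN124, at -0.90 with a spot SD of the difference of 0.32, was not called, but it was called lower with the median of the 3 spots, at -1.03, and without the third spot, at -1.09. Counting the processing as reported and the spots left out, it was called lower in 7 of 16 settings and higher in 1, against lower in 11 and higher in 0 for miR-140*. In the settings from the authors' table, which holds no spot values, a call needed only the log2 difference and detection by density. The values of the 2 nested probes differed by 0.16, within their combined spot SD of 0.38.

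miR-143 had a normalized log2 signal of 7.21 ± 0.029 at 29 dph and 8.06 ± 0.024 at 17 dph, a log2 difference of -0.85 that was not called. miR-145 stood at 6.63 ± 0.059 at 29 dph and 7.17 ± 0.18 at 17 dph, a measured log2 difference of -0.53. Since its probe was not detected at 17 dph, only a measured difference is given, here and under the other ways of processing. The limit lay slightly above the measured density at 17 dph, so the measured difference is not a bound. It sets no direction, and no fold is given. PN76, detected at both stages, stood at 7.94 ± 0.051 at 29 dph and 8.29 ± 0.082 at 17 dph, a log2 difference of -0.35. It lay 0.50 above that of miR-143. The measured difference of the miR-145 probe lay 0.32 above that of miR-143, which gives no order of the pair.

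The members were then read against all conserved miRNAs. Of the 126 detected on at least 1 array, 17.5% were called lower and 8.73% higher, and of the 66 detected on both arrays 33.3% were called lower and 4.55% higher. Among the members 1 of 3 detected names was lower and 0 were higher. The median measured log2 difference of the 3 detected members was -0.85, against -0.29 for the 126 detected and -0.70 for the 66 detected on both arrays. The 3 include miR-145, which is not among the 66, since its probe was below the limit at 17 dph. Relative to the 66, miR-140* stood at -0.35, miR-143 at -0.15 and PN76 at 0.35. With the GC trend removed these were 0.43 for miR-140*, -0.20 for miR-143 and 0.72 for PN76. By rank among the 252 conserved names, with the brightest as rank 1, miR-140* was at 61 at 29 dph and 40 at 17 dph. miR-143 was at 56 at 29 dph and 43 at 17 dph. Both thus had more names above them at 29 dph than at 17 dph although their densities were higher there. More names were detected at 29 dph (126) than at 17 dph (66), so these ranks do not give a shift in position among detected names. miR-145 was at 78 at 29 dph and is given no rank at 17 dph, where its probe was below the limit.

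**Figure D2:**
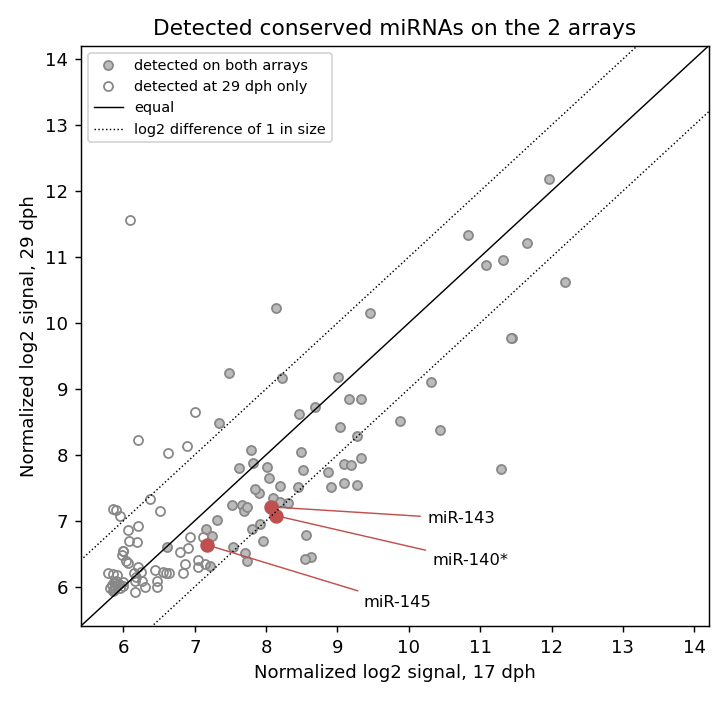
Normalized log2 signal of the 126 detected conserved miRNAs at 29 dph (vertical) against 17 dph (horizontal), with miR-140*, miR-143 and miR-145 (below the limit at 17 dph) in red, filled grey points detected on both arrays and open points at 29 dph only. The 3 members lie below the line of equal signal, and miR-140* lies just past the dotted line at a log2 difference of 1 in size, at -1.06.

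Other scalings moved all members. Without any scaling after background correction their measured log2 differences were 0.85 for miR-140*, 1.08 for miR-143 and 0.80 for miR-145. The median was 1.07 for the 126 detected miRNAs and 1.25 for the 66 detected on both arrays. With quantile normalization over the conserved probes alone, candidates had no part in the scale. The members' measured log2 differences were then -0.68 for miR-140*, -0.42 for miR-143 and -0.32 for miR-145, and none was called. The median was -0.0053 for the 126 and -0.24 for the 66. PN76 was then at 0.18. The difference of miR-140* lay below that of miR-143 in every scaling, background correction and spot summary run, the authors' table included, with 1 exception. With the linear trend in GC content removed, miR-140* stood at 0.020, above miR-143 at -0.62. The targets of miR-140* and miR-145 hold 56.5% and 54.5% G or C, and that of miR-143 holds 47.6%. Over the 126 the trend was -0.94 per 10 percentage points of GC content. At the GC content of miR-140* its value was -1.29, beside the -1.06 measured, and for PN124 -1.54 beside -0.90. For miR-143 it was -0.45 beside -0.85. The part of GC content in these differences was not tested. Wherever a single factor per array, or none, was used, the measured difference of miR-145 minus that of miR-143 was -0.29. Since the miR-145 probe was below the limit on the earlier stage's array, this value is not a bound and gives no order of the pair. By PN76 the difference was above that of miR-143 in each of the 13 ways of processing plotted. All of these ways reprocess the same arrays, and a single factor per array leaves the gap between probes unchanged. The orders of PN76, miR-140* and miR-143 across them are thus not separate checks.

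**Figure D3:**
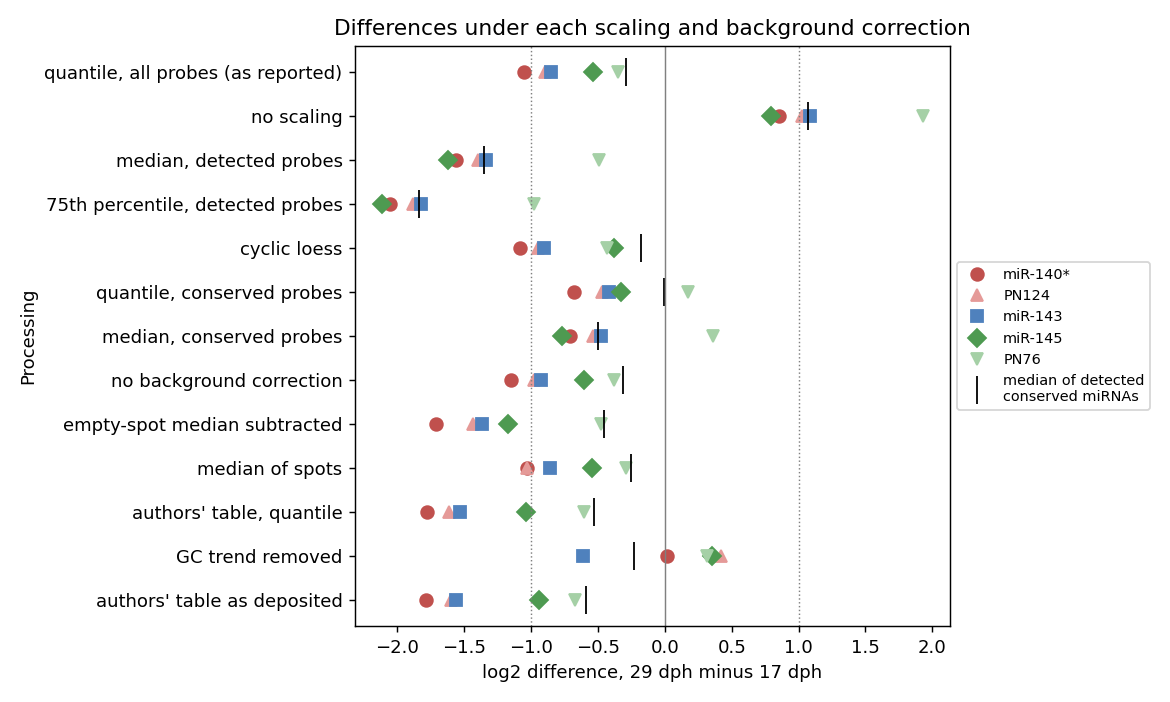
Log2 difference (29 dph minus 17 dph) of 5 probes under 13 ways of processing, 1 per line, with measured differences for the miR-145 probe, which was below the limit at 17 dph, and black ticks at the median of the 126 detected conserved miRNAs and dotted lines at -1 and 1. All 5 probes lie above 0 without scaling, and PN76 lies to the right of miR-140* and miR-143 on every line.

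The conserved miRNAs whose pair of normalized signals lay nearest to each member were named by Euclidean distance over the 2 arrays. Nearest to miR-140* among the 65 other miRNAs detected on both arrays were miR-143 (distance 0.15 on the log2 scale), miR-455b (0.15) and miR-24 (0.22). Nearest to miR-143 were miR-455b (0.035), miR-205 (0.13) and miR-140*. Nearest to miR-145 among the 59 others detected at 29 dph only were miR-133c (0.13), miR-30d (0.26) and let-7b (0.26). By that choice miR-145 and all of this pool were below the detection limit on the other array. Their distances thus rest in part on values below the limit, and no likeness is drawn from them. For miR-140* and miR-143, with 2 arrays, a likeness rests on 2 values per miRNA.

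Other miRNAs of related tissues did not lie on 1 side. Of 6 further miRNAs of cartilage and connective tissue 4 were detected, of which 1 was higher, 1 lower and 2 neither, with a median log2 difference of -0.77. All 4 were detected on both arrays. Of the 66 conserved miRNAs detected on both, 33.3% were lower and 4.55% higher, with a median of -0.70. The highest was miR-199* at 2.10, from a precursor of connective tissue, and the lowest miR-214 at -1.56. miR-455, a further cartilage miRNA, was at -0.93 and thus close to miR-140* and miR-143. Of 4 miRNAs of the vessel wall and endothelium 3 were detected. On the quantile-normalized scale the endothelial miR-126 was higher at 29 dph, miR-222 was lower at -1.40, and miR-221 was neither at -0.29. The 29 dph signal of miR-126 was 2.15-fold the lowest mean signal of any probe detected at 17 dph. Of 5 striated muscle miRNAs all were detected, with 1 higher (miR-1), 2 lower (miR-133a at -1.34 and miR-133b at -1.14) and 2 neither. The 29 dph signal of miR-1 was 21.9-fold the same lowest signal at 17 dph. Beside these 2 lists, 17.5% of the 126 conserved miRNAs detected on at least 1 array were lower and 8.73% higher. All detected miRNAs of these lists with a log2 difference below 0 were above 0 without scaling, from 0.82 for miR-222 to 1.90 for miR-199. That lowest signal at 17 dph was 7.12 in log2, while a spot below the limit, at a density of 67.5, had 7.16. The folds of miR-126 and miR-1 are thus not bounds, and they hold for the quantile-normalized scale only. Without scaling their measured log2 differences were 3.38 for miR-126 and 6.97 for miR-1, and their values under the other scalings are not given. The 3 lists, like the members, were set with earlier results of these data known.

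miR-140* is 1 of 32 starred names on the arrays. Of the other 31, 7 were detected at 29 dph and 2 of these, miR-199* and miR-210*, also at 17 dph. Among the 7, 1 (miR-199*) was higher, 0 were lower and 6 were neither, with a median log2 difference of 0.079. All but miR-199* and miR-210* were below the limit at 17 dph, which left them little room to be called lower. The median is that of miR-203b*, which is among those below the limit, so neither the counts nor the median set miR-140* apart. miR-140* was thus among 3 starred names detected on both arrays, with miR-199* on the other side of 0 and miR-210*, at -0.75, on the same side. Without scaling miR-210* stood at 1.51, and miR-199*, at 4.71, was again the highest of the 3.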

How the data were processed

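Per the labels' protocols, small RNAs of 1 tube of 5 whole larvae per stage were size-filtered, given a poly(A) tail and an oligonucleotide tag, and stained with Cy5. The deposited array tables hold mean spot densities, linear intensity values without background subtraction as judged from the values; the authors' series table holds processed intensity values with background and scaling steps unknown. Normexp (limma 3.58.1, R 4.3.3, offset 50), log2, quantile normalization over all probe spots and averaging of 3 spots were computed here, with Python 3.11.15, pandas 2.3.3, NumPy 2.4.6, SciPy 1.17.1, and ViennaRNA 2.7.2 for pairing of the strands. A candidate was nested when its target lay whole within a member's or contained it. Members, lists and most alternatives were chosen with earlier results of these data known. Named were all members, nested probes, the 3 nearest miRNAs of each detected member, the extremes of the lists and called starred names; miR-221, miR-455, miR-133b and miR-210* were added after their values were seen. Array number limits precision, and no p-value was computed, since each stage had 1 array.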

Additional observations from a re-analysis of the deposited data

How the results depend on the processing

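The sign of every member's measured difference depended on the scale. Each list below gives log2 differences of 29 dph minus 17 dph for miR-140*, miR-143, miR-145, PN76 and PN124, then how many conserved miRNAs were higher and lower. Those of miR-145 are measured differences that set no direction, as its probe was below the limit at 17 dph. The differences as reported were -1.06, -0.85, -0.53, -0.35 and -0.90, with 11 higher and 22 lower. With no scaling they were 0.85, 1.08, 0.80, 1.93 and 1.03 (64 higher, 1 lower), and 1 member was higher and 0 lower. With the median of probes over the limit at both stages as the common scale they were -1.56, -1.33, -1.62, -0.49 and -1.39 (6 higher, 83 lower). With their 75th percentile they were -2.05, -1.82, -2.11, -0.98 and -1.88 (3 higher, 97 lower). Quantile normalization over conserved probes gave -0.68, -0.42, -0.32, 0.18 and -0.47 (15 higher, 11 lower), and scaling to the median of conserved probes gave -0.71, -0.48, -0.77, 0.36 and -0.54 (15 higher, 43 lower), with 0 members called. Subtraction of the empty-spot median gave -1.71, -1.37, -1.18, -0.48 and -1.43 (30 higher, 42 lower). The authors' table gave -1.78, -1.53, -1.04, -0.60 and -1.62 after quantile normalization (34 higher, 45 lower) and -1.78, -1.56, -0.94, -0.67 and -1.60 as deposited (23 higher, 48 lower). Calls from that table had no condition on the spots, since it holds no spot values. With the GC trend removed they were 0.020, -0.62, 0.36, 0.31 and 0.42 (7 higher, 12 lower), with 0 members called. With cyclic loess miR-143 was at -0.91 and 5 conserved miRNAs were higher, and without background correction miR-143 was at -0.93.

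The number of members called lower was 3 with the median or 75th percentile of detected probes, with subtraction and with the normalized authors' table, and 2 with that table as deposited. The 3 include miR-145, whose probe was below the limit at 17 dph, so that its call sets no direction. In the same order of settings 83, 97, 42, 45 and 48 of the 126 detected conserved miRNAs were lower. At a threshold of 1.5-fold 18 conserved miRNAs were higher and 39 lower, 2 of the lower ones being members, and at 4-fold 3 were higher and 4 lower, with 0 members. The difference of miR-145 minus that of miR-143, again with miR-145 below the limit at 17 dph, was 0.32 as reported, 0.50 by PN76 (detected at both stages), -0.29 with no scaling or scaling by a single factor, 0.52 with cyclic loess, 0.092 with conserved probes only, 0.97 with the GC trend removed and 0.62 in the authors' table as deposited. The cause was not tested. Leaving out 1 spot of each probe moved miR-140* between -1.16 and -0.98, with 0 members called without spot 3. The overlap rule and the median of the spots changed no call among the members. The authors' table without further scaling and the spots left out were added after the data were seen. The difference between the strands miR-140* and miR-140 was not computed, as miR-140 was below the limit on both arrays. No paired analysis was possible because each stage had 1 array. The signal over background limits miR-140 at both stages, where no level can be given, and miR-145 at 17 dph, with a density of 67.6 against a median of 45.6 in empty spots.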
